A study of Mus musculus with 11 samples.

Results

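RNA of B cell leukemias from mice that carry 1 functional copy of each of Pax5 and Ebf1 (Pax5+/- x Ebf1+/-) was compared with RNA of wild-type progenitor B cells, gene by gene. The comparison took 8 of the 11 libraries in the series: 5 leukemias and 3 wild-type controls, all on a C57BL/6 background. Each leukemia library came from 1 mouse and from a flash-frozen lymph node cell suspension. Each wild-type library came from progenitor B cells purified on columns from bone marrow, pooled from 3, 7 and 6 mice in replicates 1, 2 and 3. Tissue, pooling, purification and freezing therefore differed between the groups together with genotype and disease, and their parts in any difference cannot be told apart. Column names of wild-type and leukemia replicate 1 both end in ATCACG, and those of replicate 2 in CGATGT. Whether the groups were sequenced together was not analysed, and any part of separate sequencing cannot be told apart either. The labels state neither how pure the leukemic cells were nor which further mutations each leukemia carried. The other 3 libraries, from Ebf1 heterozygous mice without leukemia, took no part in the fit.

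Pax5 and Ebf1 are transcription factors that act together to commit lymphoid progenitors to the B cell lineage and to hold them there. Ebf1 binds DNA early in that programme and switches on Pax5 and the genes of the pre-B cell receptor, and Pax5 then activates B cell genes and silences genes of other lineages. The pre-B cell receptor pairs an immunoglobulin heavy chain with a surrogate light chain, signals through kinases such as Syk, and drives a burst of division followed by arrest and light chain rearrangement. Loss of 1 copy of either gene is a known lesion of B cell acute lymphoblastic leukemia.

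Levels are FPKM, reads per kilobase of gene relative to the size of the library, as the authors deposited them. The library totals behind them ran from 8.51 to 14.49 in units of 1e6 reads, which made a single read on 2000 bases of transcript equal to 0.0345 to 0.0588 FPKM. In all, 10968 genes whose 8 libraries averaged 1 FPKM or more were tested on log2(FPKM + 1) with limma, and a gene is said to have risen or fallen where its Benjamini-Hochberg adjusted p was under 0.05. Differences are leukemia minus wild type on that scale, where the added 1 shrinks changes of weakly expressed genes, and ± is the SD over n = 3 wild-type or n = 5 leukemia libraries. Across genes, libraries correlated at 0.957 to 0.984 within wild type, at 0.948 to 0.972 within leukemia and at 0.831 to 0.876 between the groups. Of 14 markers of progenitor B cells all were above the limit for testing, with summed levels of 3506 to 5639 FPKM in wild type and 3794 to 5042 FPKM in leukemia. The overlap of these sums hides changes of single members. Of the 14, 2 rose (14.3%, against 20.7% of all tested genes) and 5 fell (35.7%, against 24.1%), with a median of -0.32. The 5 were Cd79b, Rag2, Cd24a and the mutated genes Pax5 and Ebf1 themselves, which are on the list. Only 1 fell without wild-type replicate 1, and 2 without replicate 2. Sums of late granulocyte markers did not overlap: the 13 genes summed to 365 to 3282 FPKM in the wild-type pools and to 3.21 to 16.7 FPKM in the leukemias. Sums of mature B, T and natural killer cell markers overlapped between the groups. Plasma cell markers summed higher in every leukemia, to 592 to 933 FPKM against 227 to 366 FPKM in wild type. On average Mzb1 alone, given below, held most of that sum. Of the 6 tested plasma cell genes, Jchain and Mzb1 rose and Sdc1 and Slpi fell.

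Both mutated genes were lower in every leukemia than in every wild-type pool. Pax5 (chromosome 4, 44524748 to 44710694, GRCm38) stood at 312, 175 and 179.7 FPKM in wild type and at 128, 162, 145, 88.3 and 71.4 FPKM in the leukemias, a log2 difference of -0.91 (SE 0.30, adjusted p = 0.0338). Ebf1 (chromosome 11, 44618100 to 45008096) stood at 112, 102 and 83.4 FPKM in wild type and at 54.3, 59.1, 72.7, 81.4 and 65.6 FPKM in the leukemias, a difference of -0.57 (SE 0.15, adjusted p = 0.0132). The exact permutation test over libraries gave p = 0.0357 for each, two-sided, the smallest that 5 against 3 can give. The groups came close: the lowest wild-type pool for Ebf1 and the highest leukemia were 83.4 and 81.4 FPKM. Both calls hung on wild-type libraries, since without replicate 1 the adjusted p was 0.138 for Pax5 and 0.0553 for Ebf1, and without replicate 2 it was 0.051 for Ebf1. Without leukemia replicate 4 it was 0.0647 for Pax5. Which allele the reads came from was not analysed here.

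A large share of the tested genes differed between the groups. The test called 2267 genes higher in leukemia (20.7% of those tested) and 2647 lower (24.1%), so that 44.8% were called in either direction. These shares are the background against which every count of list members below is to be read. The median difference over all tested genes was -0.04, and 47.5% of tested genes lay above 0. In 4533 of the calls (92.2%) the 8 libraries did not overlap between the groups. Calls and overlap rest on the same values, so this share is a description and adds no support to the calls. Large changes were mostly downward: 726 genes rose and 939 fell by at least 2-fold, 41 rose and 150 fell by at least 8-fold, and 4 rose and 18 fell by at least 32-fold. Only 5 genes were under 1 FPKM in every wild-type library and at 10 FPKM or more in every leukemia, namely Galnt14, Dlx1, Ston1, Rnase11 and Cdh17. The reverse held for 25 genes. Of those 25, the 11 genes Car1, Elane, Mpo, Camp, Ngp, Lcn2, Pf4, Ppbp, Itga2b, Klf1 and Ermap belong to the marker lists of granulocytes, red cells or platelets, while Polm, Kdm5b, Lgr5 and Nuak1 do not.

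**Figure D1:**
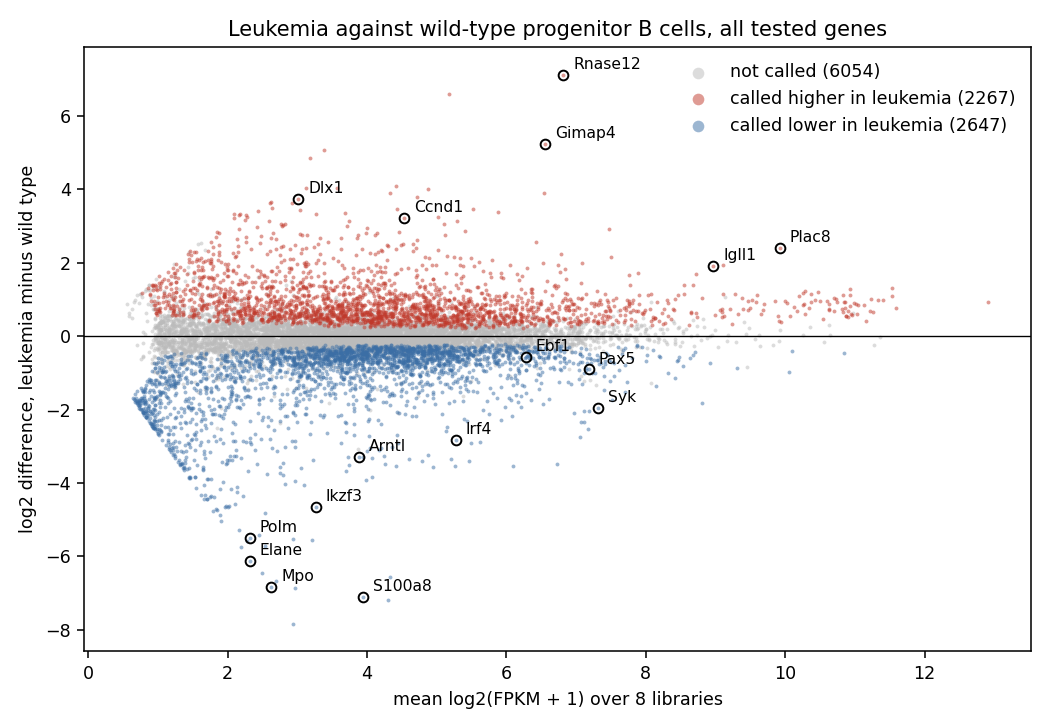
Each point is 1 of the 10968 tested genes, with its mean log2(FPKM + 1) over the 8 libraries on the horizontal axis and the log2 difference, leukemia minus wild type, on the vertical axis. Colours mark the 2267 genes called higher and the 2647 called lower. The points extend farther below 0 than above it.

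Of the 10 genes with the clearest rise, 8 averaged under 10 FPKM in the wild-type pools. Gimap4, a GTPase of lymphocytes, stood at 8.77, 10.02 and 7.66 FPKM in wild type and at 352, 349, 299, 434 and 415 FPKM in the leukemias, a log2 difference of 5.23 (SE 0.14, adjusted p = 9.05e-08). Dlx1, a homeobox transcription factor known from forebrain development, stood at 0.616, 0.668 and 0.546 FPKM in wild type and at 20.3, 19.8, 17.4, 20.3 and 24.2 FPKM in the leukemias (3.73, SE 0.12, adjusted p = 3.10e-07). Fxyd5, a regulator of the sodium pump, was already expressed in wild type at 21.9, 21.7 and 21.6 FPKM and reached 100.5, 92.1, 98.6, 94.5 and 84.8 FPKM in the leukemias (2.06, SE 0.08, adjusted p = 1.17e-06). The lowest leukemia was 29.9, 26.1 and 3.88 times the highest wild-type pool for the 3 genes. Plac8, a small cysteine-rich protein, rose from 342 ± 11.5 to 1833 ± 259.8 FPKM. Cd244, a receptor of the SLAM family known from natural killer cells, rose from 1.34 ± 0.521 to 22 ± 3.62 FPKM, and Trem1, a receptor of myeloid cells, from 1.06 ± 0.0533 to 33.9 ± 10.4 FPKM. Tnni2, a troponin of fast skeletal muscle, rose from 2.45 ± 0.223 to 29.3 ± 3.82 FPKM and Ston1, an endocytic adaptor, from 0.532 ± 0.257 to 24.3 ± 5.92 FPKM. Adgrg3, an adhesion-type G protein-coupled receptor, rose from 9.36 ± 1.43 to 112 ± 13.7 FPKM. The last of the 10, Rnase12, is described with its family below.

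The genes with the clearest fall comprised genes of myeloid cells and platelets and genes with broader roles. Mpo, Elane and Prtn3 encode enzymes of neutrophil granules. Mpo stood at 123, 101 and 135 FPKM in the wild-type pools and at 0.0462, 0.03, 0.0317, 0.0607 and 0.0548 FPKM in the leukemias (-6.84, SE 0.12, adjusted p = 7.75e-09). F13a1, a clotting factor subunit of platelets and monocytes, and Hp, the hemoglobin scavenger haptoglobin, followed the same pattern, with 28.8 ± 6.01 against 0.171 ± 0.135 FPKM and 29.3 ± 10.6 against 0.198 ± 0.174 FPKM. The other 5 genes are not known as markers of those cells. Polm, the DNA polymerase mu that fills gaps during end joining (chromosome 11, 5827860 to 5838832), stood at 87.7, 41.7 and 40.5 FPKM in wild type and at 0.322, 0.104, 0.165, 0.132 and 0.262 FPKM in the leukemias (-5.50, SE 0.24, adjusted p = 2.07e-06). Its lowest wild-type value was 126 times its highest leukemia value. Arntl, the clock transcription factor also called Bmal1, stood at 66.4, 65.4 and 51.5 FPKM in wild type and at 4.93, 5.8, 5.71, 5.29 and 4.82 FPKM in the leukemias (-3.29, SE 0.11, adjusted p = 5.63e-07). Gpam, which starts glycerolipid synthesis at the mitochondrion, fell from 77 ± 4.14 to 7.12 ± 0.468 FPKM, Nuak1, a kinase related to AMPK, from 20.7 ± 4.47 to 0.374 ± 0.169 FPKM, and Fam63b, a deubiquitinase, from 32.8 ± 3.85 to 4.45 ± 0.6 FPKM.

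**Figure D2:**
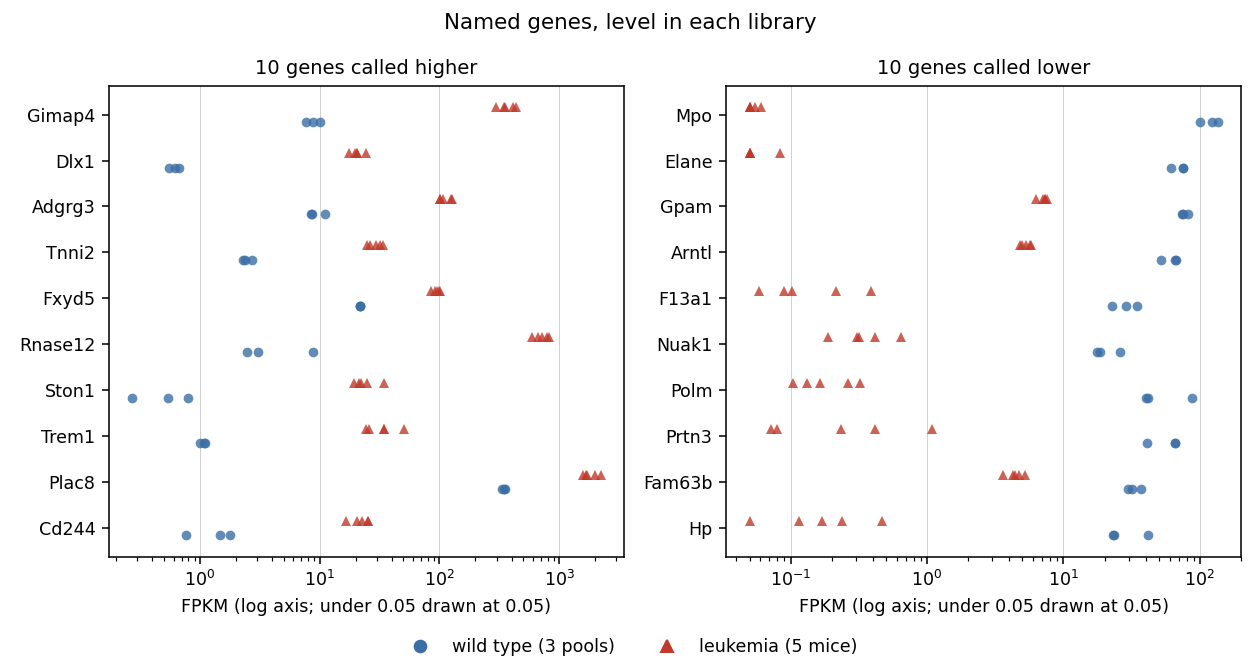
FPKM in each library of the 10 genes called higher and the 10 called lower that were chosen by the rule for named genes, on a logarithmic axis on which values under 0.05 FPKM are drawn at 0.05. Circles are the 3 wild-type libraries and triangles the 5 leukemias, and the rule took only genes whose groups do not overlap.

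Regulators of B cell development fell more often than they rose. Of 33 tested transcription factors of the lineage, 20 fell (60.6%, against 24.1% of all tested genes) and 5 rose (15.2%, against 20.7%), with a median of -0.81 against -0.04 for all tested genes. Their summed level was 2998 to 4107 FPKM in wild type and 1455 to 1729 FPKM in the leukemias. The deepest fall was that of Ikzf3, the Ikaros family member Aiolos that acts as the pre-B cell leaves the cycle, from 80.6, 65.1 and 70.003 FPKM to 3.33, 0.484, 1.02, 0.566 and 8.69 FPKM (-4.66, SE 0.57, adjusted p = 3.22e-04). Bach2, which restrains activation and guards the pre-B cell checkpoint, went from 131, 103 and 125 FPKM to 7.61, 6.92, 12.3, 15.1 and 20.6 FPKM (-3.25, SE 0.31, adjusted p = 9.72e-05). Irf4, which together with Irf8 promotes light chain rearrangement, went from 153, 135 and 108 FPKM to 12.8, 12, 16, 25.8 and 26 FPKM (-2.83, SE 0.27, adjusted p = 9.97e-05). The lowest wild-type pool was 7.49, 5.01 and 4.15 times the highest leukemia for the 3 genes. Spib fell from 494 ± 142 to 42.8 ± 10.2 FPKM, Irf8 from 104 ± 24.4 to 19.4 ± 10.9 FPKM, the E protein gene Tcf3 from 338 ± 61.8 to 82.8 ± 20.1 FPKM, Foxo1 from 61.4 ± 9.72 to 26 ± 10.6 FPKM and Ikzf1 (Ikaros) from 219.8 ± 8.8 to 96.4 ± 3.46 FPKM. Klf2, a factor of resting lymphocytes, fell from 96.6 ± 55.1 to 9.67 ± 13.4 FPKM, with leukemia replicate 2 at 33.2 FPKM and leukemia replicate 4 at 0.681 FPKM. Its log2 difference was -3.83, and -4.45 without leukemia replicate 2. Pax5 and Ebf1 themselves were among the smaller falls on the list.

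The 5 members that rose were Erg, Hhex, Mef2c, Bcl11a and Runx3. Erg, an ETS factor of hematopoietic stem cells, rose from 23.4 ± 7.43 to 80.4 ± 15.8 FPKM, and Hhex, a homeobox factor of early lymphoid progenitors, from 31.1 ± 0.934 to 69.9 ± 6.31 FPKM. Mef2c rose from 22.7 ± 3.66 to 43.4 ± 8.39 FPKM, Bcl11a from 19.5 ± 6.45 to 31.4 ± 3.66 FPKM and Runx3 from 10.2 ± 4.05 to 17.9 ± 2.39 FPKM. On a separate list of 20 stem cell and non-B lineage factors, 9 could be tested, of which 2 rose and 6 fell. Without wild-type replicate 2 or 3, 3 fell. Tcf7, the T lineage factor TCF-1, stood at 5.96, 4.9 and 6.57 FPKM in wild type and at 27.6, 28.3, 62.4, 32.5 and 24.1 FPKM in the leukemias (2.32, SE 0.27, adjusted p = 2.62e-04), and Lyl1, a basic helix-loop-helix factor, rose from 49.3 ± 5.16 to 82.7 ± 8.01 FPKM. Gfi1b, a factor of red cells and megakaryocytes, fell from 29.1 ± 18.8 to 0.599 ± 0.599 FPKM, beside the fall of the red cell and platelet markers given below. The part of those cells in it was not tested.

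**Figure D3:**
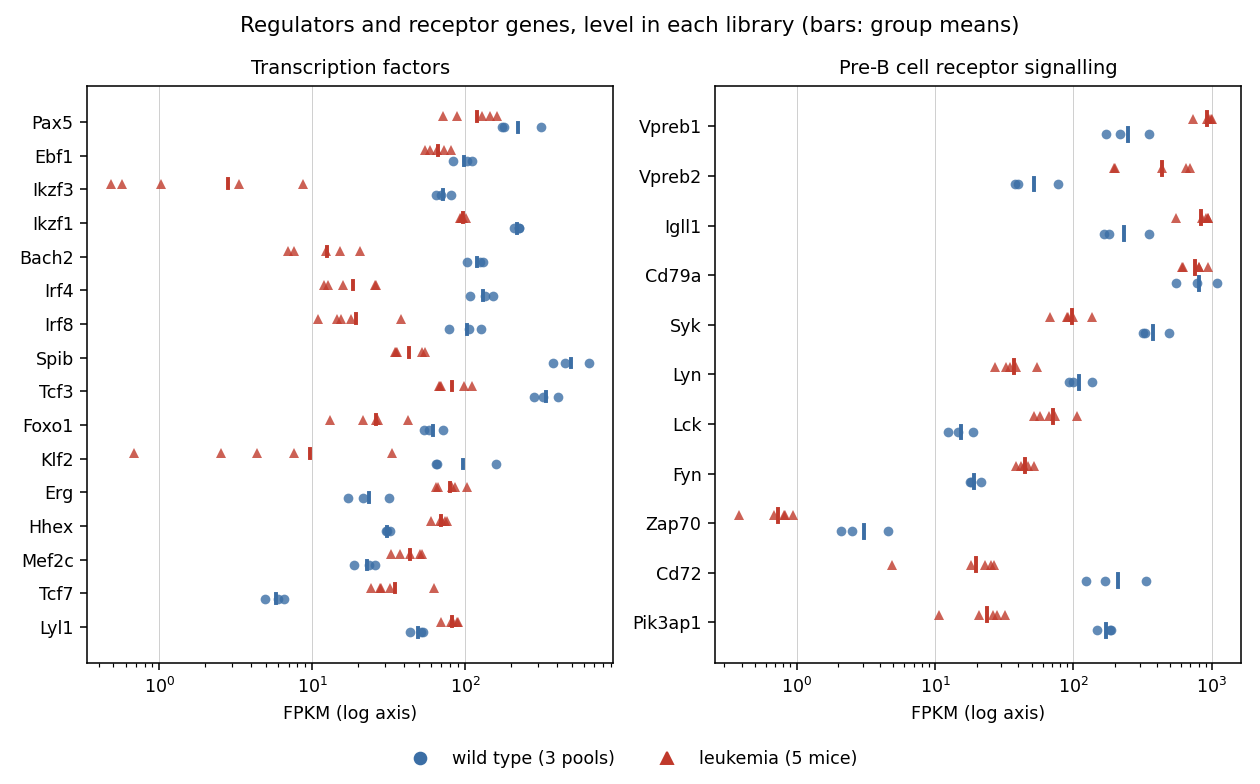
FPKM in each library of transcription factor genes of the B lineage and of early progenitors (left) and of genes of pre-B cell receptor signalling (right), on a logarithmic axis. Circles are the 3 wild-type and triangles the 5 leukemia libraries, with short bars at the group means. Ikzf3, Bach2 and Irf4 are lower in all 5 leukemias, and Erg, Hhex and Tcf7 higher.

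Genes of the pre-B cell receptor pathway changed in both directions: the 3 surrogate light chain genes rose, the kinase gene Syk fell, and signalling genes were found on both sides. Of 26 tested genes, 9 rose and 7 fell (median -0.05), which is 34.6% and 26.9% against the 20.7% and 24.1% of all tested genes. Vpreb2 stood at 38, 77.1 and 39.9 FPKM in wild type and at 698, 200.002, 438, 646 and 197 FPKM in the leukemias (2.93, SE 0.47, adjusted p = 0.00135). Igll1, the lambda 5 chain, stood at 179.9, 352 and 166 FPKM and at 937, 930.2, 853, 908 and 552 FPKM (1.90, SE 0.27, adjusted p = 6.57e-04), and Vpreb1 at 216, 352 and 173 FPKM and at 998, 919, 958, 985 and 733 FPKM (1.95, SE 0.21, adjusted p = 1.89e-04). Vpreb1 and Vpreb2 are near-identical copies, so that reads could have been split between them. Syk, the kinase that carries the signal, went the other way, from 487, 328 and 317 FPKM to 67.9, 91.1, 99.998, 90.4 and 137 FPKM (-1.95, SE 0.22, adjusted p = 2.16e-04). Cd72, an inhibitory coreceptor, fell from 209 ± 109 to 19.7 ± 8.85 FPKM, the Src family kinase Lyn from 109 ± 23.2 to 37.3 ± 10.3 FPKM and the adaptor Pik3ap1 (BCAP) from 172 ± 21.5 to 23.5 ± 8.25 FPKM. The Src family kinases used by T cells did the reverse of Lyn: Lck rose from 15.3 ± 3.27 to 71.1 ± 21.4 FPKM and Fyn from 19.3 ± 2.02 to 44.5 ± 5.24 FPKM. Of the signalling genes further along, the phosphatase Ptpn6 rose from 77.5 ± 4.77 to 123 ± 21.4 FPKM, the PI3 kinase subunit Pik3cd from 85.3 ± 15.8 to 141 ± 26.4 FPKM, the adaptor Lat2 from 8.3 ± 2.06 to 30.9 ± 17.6 FPKM and the phospholipase Plcg2 from 88.9 ± 12.9 to 122 ± 18.7 FPKM. The call of Lat2 was lost without wild-type replicate 2 (adjusted p = 0.0654), and that of Plcg2 without wild-type replicate 1 or 3 or leukemia replicate 1, 2 or 4 (0.0564 to 0.127). Zap70, the T cell relative of Syk, fell from 3.06 ± 1.31 to 0.732 ± 0.214 FPKM. Cd79a, a signalling chain of the receptor, did not pass the test (809.6 ± 270.4 against 755 ± 141 FPKM).

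Promoter sequence is shown for 4 genes that carry the contrast between regulators that fell and pre-B cell or lymphocyte genes that rose, each with the core letters that Ebf1 is known to bind, CCCNNGGG, in its 250 bases before the start (RefSeq, GRCm38.p6, gene strand, 5′ to 3′). Capitals mark the matches, searched on both strands, which for these palindromic letters are the same. Spib (chr7:44532072-44532321, minus strand) and Foxo1 (chr3:52268087-52268336, plus strand) fell, and Igll1 (chr16:16863986-16864235, minus strand) and Gimap4 (chr6:48684328-48684577, plus strand) rose.
Spib: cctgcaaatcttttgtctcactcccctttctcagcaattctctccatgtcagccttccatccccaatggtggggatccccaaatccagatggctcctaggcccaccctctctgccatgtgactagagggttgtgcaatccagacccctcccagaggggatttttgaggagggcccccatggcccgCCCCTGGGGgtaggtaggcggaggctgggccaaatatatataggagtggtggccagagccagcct
Foxo1: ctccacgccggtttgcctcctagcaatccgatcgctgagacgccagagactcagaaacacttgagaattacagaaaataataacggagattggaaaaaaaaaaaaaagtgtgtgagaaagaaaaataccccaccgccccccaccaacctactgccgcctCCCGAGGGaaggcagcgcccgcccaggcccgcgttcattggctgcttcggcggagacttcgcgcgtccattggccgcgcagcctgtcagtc
Igll1: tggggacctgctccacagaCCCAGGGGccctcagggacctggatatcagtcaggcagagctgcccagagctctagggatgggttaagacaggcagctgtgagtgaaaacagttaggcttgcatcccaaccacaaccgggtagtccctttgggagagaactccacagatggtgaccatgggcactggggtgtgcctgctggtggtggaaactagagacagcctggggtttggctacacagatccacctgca
Gimap4: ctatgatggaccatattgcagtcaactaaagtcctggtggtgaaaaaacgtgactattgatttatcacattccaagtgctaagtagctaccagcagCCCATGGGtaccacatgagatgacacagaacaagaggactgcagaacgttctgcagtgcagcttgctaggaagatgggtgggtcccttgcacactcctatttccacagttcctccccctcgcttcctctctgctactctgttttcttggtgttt
Spib holds 2 overlapping matches and the other 3 promoters hold 1 each. The 4 were chosen for holding a match and from both directions of change. They therefore do not show how often the letters stand before genes that rose or fell. Over all promoters of the RefSeq table of the same length 11.8% held a match, against 15.3% of the promoters of tested genes, 16.1% of those of genes called at least 2-fold higher and 18.6% of those at least 2-fold lower. A match says only that the letters are in the window, since binding was not measured here.

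Among the genes of V(D)J recombination and end joining, a pair of related polymerases changed in opposite directions. Polm fell to 0.197 ± 0.0916 FPKM, as given above, while Poll, the DNA polymerase lambda that shares its gap-filling role, stood at 4.75, 7.26 and 5.79 FPKM in wild type and at 21.3, 19.4, 25, 26.9 and 19.4 FPKM in the leukemias (1.76, SE 0.15, adjusted p = 7.03e-05). Lig4, the ligase that seals the joint, fell from 35.5, 30.5 and 24.7 FPKM to 4.78, 3.93, 6.28, 8.47 and 6.28 FPKM (-2.19, SE 0.21, adjusted p = 1.00e-04). Xrcc5, the Ku80 end-binding subunit, rose from 11.7 ± 4.66 to 26.6 ± 5.47 FPKM and its partner Xrcc6 had 245 ± 54.1 against 188 ± 59.9 FPKM without passing the test. Rag1 and Dntt, the recombinase and the nucleotide-adding transferase, did not pass and varied widely among the leukemias: Rag1 stood at 51.5, 43.2, 197, 92 and 242 FPKM there against 303, 184 and 224 FPKM in wild type, and Dntt at 13.9, 128, 222, 706 and 401 FPKM against 130.2, 239 and 156 FPKM. Leukemia replicate 1 was the lowest for Dntt and replicate 4 the highest, on either side of all 3 wild-type pools. Without leukemia replicate 5 Rag1 passed as lower (-1.53, adjusted p = 0.0309). Of 16 tested genes 3 rose and 7 fell (median -0.41), and 3 fell without wild-type replicate 1 or without replicate 2.

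Cytokine receptors were near the background, while single members of the JAK-STAT chain changed by several fold. Of 24 tested receptors 5 rose and 5 fell, the latter 8 without leukemia replicate 5, 3 without wild-type replicate 1 or 2 and 2 without replicate 3. Il7r, the receptor that progenitor B cells depend on, had 125 ± 13.2 FPKM in wild type and 137 ± 24.5 FPKM in leukemia and did not pass the test. Il10ra rose from 25.6 ± 7.36 to 62.4 ± 17.8 FPKM and Ifngr1, a chain of the interferon gamma receptor, from 49.6 ± 12.3 to 111 ± 13.9 FPKM. Igf1r fell from 3.95 ± 2.5 to 0.0367 ± 0.0415 FPKM. Downstream, 5 of 20 tested genes rose (25.0%, against 20.7% of all tested genes) and 8 fell (40.0%, against 24.1%). Without wild-type replicate 1 or 2, 3 rose. Jak3, the kinase of the common gamma chain, stood at 7.53, 10.4 and 7.26 FPKM in wild type and at 26.8, 19.4, 19.2, 29.3 and 17.2 FPKM in the leukemias (1.30, SE 0.19, adjusted p = 8.80e-04), and Stat4 at 4.75, 7.36 and 5.28 FPKM and at 18.2, 36.5, 29.98, 38 and 49.7 FPKM (2.33, SE 0.28, adjusted p = 2.91e-04). Cish and Socs2, feedback inhibitors that STAT5 is known to induce, rose from 2.73 ± 0.819 to 18.3 ± 15.7 FPKM and from 5.49 ± 0.978 to 47.3 ± 17.2 FPKM. Cish was highest in leukemia replicates 2 and 4, at 27.9 and 41.2 FPKM, and between 5.67 and 9.37 FPKM in the others. Its rise did not pass without wild-type replicate 1 or 2 (adjusted p = 0.0804 and 0.0547) or with voom on recovered reads (0.0932). The survival kinase gene Pim2 fell from 36.6 ± 13.2 to 10.4 ± 3.41 FPKM.

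Genes of NF-kB signalling moved mostly downward. Of 22 tested, 12 fell (54.5%) and 1, Icam1, rose (median -0.40). Nfkbia, the inhibitor that the pathway itself induces, fell from 116 ± 35.5 to 33.2 ± 9.42 FPKM, Birc3 from 44.9 ± 9.91 to 13.8 ± 2.3 FPKM, Relb from 15.8 ± 4.85 to 4.92 ± 1.72 FPKM and Bcl3 from 7.75 ± 2.43 to 1.17 ± 1.17 FPKM. Rel, which encodes the DNA-binding subunit c-Rel, had 12.6 ± 0.846 against 12.5 ± 0.855 FPKM and did not pass. Notch genes were split: of 15 tested 6 rose (40.0%, against 20.7% of all tested genes) and 6 fell (40.0%, against 24.1%). Without wild-type replicate 1 or 3, 3 fell. The glycosyltransferases Lfng and Mfng, which modify Notch receptors, rose from 14.1 ± 3.14 to 68.1 ± 21.7 FPKM and from 19.5 ± 3.11 to 63.7 ± 14.2 FPKM. Dtx1, a target of Notch2 in B cells, stood at 10.9, 7.1 and 6.67 FPKM in wild type and at 0.949, 0.493, 0.412, 0.208 and 0.413 FPKM in the leukemias (-2.61, SE 0.22, adjusted p = 5.22e-05), and the protease Adam10, which cleaves Notch receptors, fell from 109.7 ± 10.5 to 41.5 ± 5.67 FPKM.

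The D-type cyclins changed in opposite directions. Ccnd1, cyclin D1, stood at 4.44, 2.84 and 8.12 FPKM in wild type and at 70.6, 37.5, 52.3, 45.6 and 63 FPKM in the leukemias (3.22, SE 0.28, adjusted p = 7.35e-05). Ccnd3, the main D-type cyclin of pre-B cells, stood at 417, 498 and 318 FPKM and at 56.1, 109.7, 289, 115 and 258 FPKM (-1.53, SE 0.49, adjusted p = 0.0306). The call of Ccnd3 was lost without leukemia replicate 2 or 4 or any 1 wild-type replicate (adjusted p = 0.0509 to 0.103). Ccnd2 did not pass, at 69.7, 49.4, 12.8, 136 and 20.6 FPKM in the leukemias against 10.4, 24.5 and 26.4 FPKM. Ccnd3 still had the highest FPKM of the 3 genes in leukemia replicates 2, 3 and 5, and summed over the 3 genes the leukemias held 196 to 355 FPKM against 353 to 525 FPKM. The partner kinase gene Cdk4 rose from 208 ± 36.6 to 406 ± 17.5 FPKM and Cdk6 from 18.2 ± 12.4 to 56.2 ± 17.6 FPKM, the latter with an adjusted p of 0.0573 when all 11 libraries entered 1 fit. Cdkn2a, which encodes the tumor suppressors p16 and p19Arf, was higher in every leukemia, at 9.62, 8.47, 21.5, 3.13 and 20.8 FPKM against 0.635, 0.594 and 0.243 FPKM (2.96, SE 0.50, adjusted p = 0.00172). The other inhibitor genes Cdkn2d, Cdkn2c and Cdkn1b fell, as did Rb1 (33.4 ± 0.545 to 7.59 ± 2.48 FPKM) and E2f2 (159 ± 34.4 to 21.8 ± 9.25 FPKM). In all 4 of 20 tested genes of the G1 phase rose and 7 fell. Genes of mitosis moved in 1 direction: 19 of 22 fell (86.4%) and 0 rose with limma (0 at an unadjusted p under 0.05 and 0 with voom, median -0.70), among them Ccnb2 from 162 ± 22.9 to 85.9 ± 10.2 FPKM, Plk1 from 97.3 ± 14.3 to 52.1 ± 5.34 FPKM and Top2a from 348 ± 43.4 to 215 ± 24.6 FPKM. Myc, outside these lists and chosen after its values were seen, stood at 17.6, 48.3 and 62.3 FPKM in wild type and at 209.6, 145, 122, 175 and 129 FPKM in the leukemias (1.99, SE 0.36, adjusted p = 0.00239).

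Survival genes as a family were called about as often as all tested genes, while single members changed by several fold. Of 13 tested members of the BCL2 family 3 rose and 3 fell. These are 23.1% each, near the 20.7% higher and 24.1% lower of all tested genes. Bok, a pore-forming member, stood at 2.77, 5.48 and 2.6 FPKM in wild type and at 27.7, 27.1, 43.1, 17.6 and 34.2 FPKM in the leukemias (2.74, SE 0.29, adjusted p = 1.43e-04). Bmf, a BH3-only promoter of cell death, fell from 36.1 ± 11.9 to 6.52 ± 3.23 FPKM, and the protective Bcl2l1 (BCL-XL) fell as well, from 67.6 ± 16.9 to 14.6 ± 5.65 FPKM. Bcl2 had 3.1 ± 1.6 against 3.47 ± 0.922 FPKM and did not pass. Among 18 tested genes of the p53 pathway 4 rose and 4 fell (22.2% each), also near those shares. Without wild-type replicate 2 or 3, 2 rose. Rrm2b, the p53-inducible ribonucleotide reductase subunit, stood at 58.6, 37.2 and 39.6 FPKM in wild type and at 5.78, 5.8, 6.81, 5.24 and 6.45 FPKM in the leukemias (-2.69, SE 0.15, adjusted p = 8.28e-06). Trp53 itself had 102 ± 9.2 against 114 ± 7.61 FPKM and did not pass.

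Surface antigens that stage B cell development fell more often than they rose, with 10 of 25 lower and 5 higher (median -0.32). Cd24a, the heat stable antigen, went from 1043, 1193 and 772 FPKM to 154, 308, 418, 184 and 449.5 FPKM (-1.83, SE 0.36, adjusted p = 0.00358), and Cd38 from 102, 54.4 and 56.3 FPKM to 7.89, 4.46, 7.24, 5.76 and 11.6 FPKM (-3.10, SE 0.29, adjusted p = 9.07e-05). Cd2, which is known to appear at the pre-B stage, was uneven among the leukemias, at 8.94, 1.2, 22.6, 0.608 and 47.5 FPKM against 114, 57.3 and 48.2 FPKM, and leukemia replicate 5 came within 1 FPKM of the lowest wild-type pool. Its fall passed with all libraries (adjusted p = 0.0418) but not without leukemia replicate 1, 2 or 4 or any 1 wild-type replicate (0.0632 to 0.135). Ly6a, the stem cell antigen Sca-1, rose from 8.53 ± 3.67 to 91.4 ± 56.1 FPKM and Cd48, a ligand of Cd244, from 72.9 ± 13.2 to 153 ± 31.7 FPKM. Genes of adhesion and homing were mostly lower as well, with 11 of 22 down and 4 up, and 7 down without wild-type replicate 1. Cdh17, a cadherin of B cell progenitors and gut epithelium, was among those that rose, at 0.234, 0.219 and 0.0399 FPKM in wild type and at 22.9, 22.7, 39.8, 39.4 and 93.5 FPKM in the leukemias (5.06, SE 0.41, adjusted p = 4.61e-05). Cd44, the hyaluronan receptor, went from 39.5, 34.9 and 44.7 FPKM to 2.68, 0.257, 2.92, 0.205 and 3.31 FPKM (-4.03, SE 0.46, adjusted p = 2.33e-04), and the integrin chain Itgb7 from 18.2 ± 7.54 to 1.48 ± 0.955 FPKM. Cxcr4, the chemokine receptor that holds progenitors in bone marrow, fell from 296 ± 65.5 to 156 ± 36.1 FPKM. Granulocytes and platelets also carry several of these molecules, and the part of their markers, lower in every leukemia, was not tested.

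Genes of antigen presentation were called in both directions. Of 15 tested genes of MHC class I 7 rose and 2 fell (median 0.06). Without wild-type replicate 1, 4 rose and 1 fell, and without leukemia replicate 1, 2, 3 or 5 the falls were also 1. Erap1, a peptide-trimming protease, rose from 26.3 ± 3.13 to 49.5 ± 6.52 FPKM and the proteasome activator Psme2 from 67.5 ± 5.72 to 125 ± 11.9 FPKM. Class II genes were lower in the median (-0.88), but 2 of 10 passed as lower, Ciita and H2-DMa, and 1 as higher, shares of 20% and 10% that lie under the 24.1% and 20.7% of all tested genes. The higher one was H2-DMb2, from 7.14 ± 2.93 to 18 ± 10.1 FPKM (adjusted p = 0.0385), and its call was lost without leukemia replicate 3, 4 or 5 or wild-type replicate 2 or 3, without the filter on low values, with voom and with all libraries in 1 fit (0.0556 to 0.14). The spread among leukemias was wide: H2-Aa stood at 93.1, 16.4, 32.9, 7.81 and 28.4 FPKM against 90.3, 87.1 and 72.8 FPKM in wild type, with leukemia replicate 1 just above the wild-type pools and the other leukemias below them. Without leukemia replicate 1 H2-Aa passed (adjusted p = 0.00593) and the count of lower genes was 6. Without any 1 of the wild-type pools it was 1, H2-DMa being lost (adjusted p = 0.0582 to 0.0925). Among interferon-stimulated genes 11 of 27 rose (40.7%) and 4 fell (median 0.52), although 5 rose without wild-type replicate 2 and 7 with voom on recovered reads. Rtp4 stood at 5.56, 6.11 and 5.31 FPKM in wild type and at 29, 49.6, 21.2, 41.5 and 23.4 FPKM in the leukemias (2.28, SE 0.26, adjusted p = 2.26e-04), and Gbp2 at 5.36, 6.18 and 5.34 FPKM and at 13.6, 22.4, 11.8, 43.4 and 23.3 FPKM (1.71, SE 0.35, adjusted p = 0.00451). The signalling gene Stat2 was lower, at 19.4 ± 3.21 against 10.7 ± 1.71 FPKM.

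Of 2 gene families that lie in clusters in the genome, 1 rose in every tested member and the other, the ribonuclease A family, changed in both directions. All 8 tested Gimap genes, GTPases of lymphocyte survival in 1 cluster on chromosome 6, rose, with a median difference of 2.09. After Gimap4 the steepest was Gimap3, from 4.34 ± 1.61 to 88 ± 33.4 FPKM, and the flattest Gimap1, from 41.7 ± 8.17 to 103 ± 13.2 FPKM. In the ribonuclease A family 6 of 10 tested genes rose and 4 fell, the latter 2 without wild-type replicate 2 or 3. Rnase12 stood at 2.48, 8.82 and 3.04 FPKM in wild type and at 672, 721, 588, 793 and 827 FPKM in the leukemias (7.11, SE 0.30, adjusted p = 1.80e-06), and Rnase4 rose from 2.66 ± 1.03 to 27.7 ± 3.02 FPKM. Rnase6 fell from 40.5 ± 11.6 to 3.41 ± 2.4 FPKM. The eosinophil-associated Ear1 was uneven among the wild-type pools, at 3.79, 27.8 and 9.39 FPKM, and fell to 0 reads in all 5 leukemias, which allows up to 0.0687 FPKM over that group (3 reads). Its fitted difference was -3.50, -4.11 without wild-type replicate 1 and -2.82 without replicate 2. Close copies in both families could share reads.

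**Figure D4:**
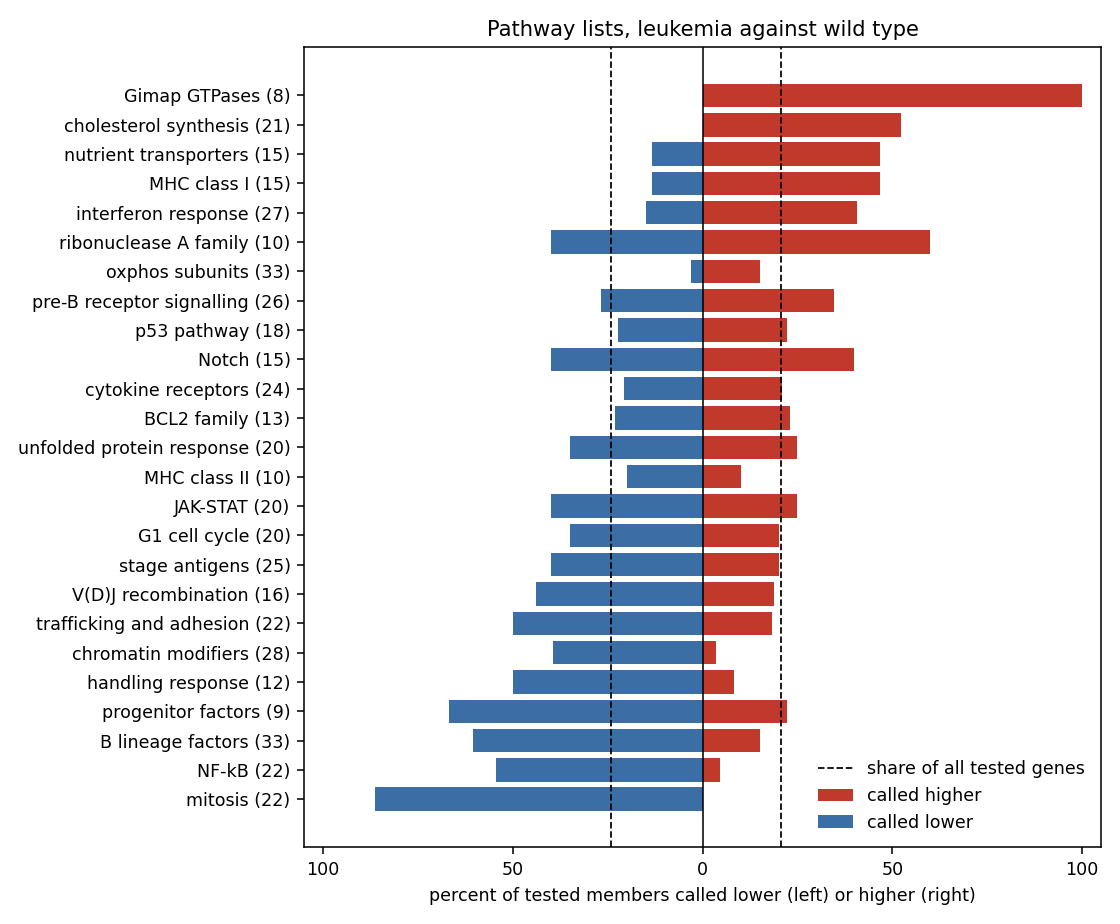
Share of tested members called higher (right) and lower (left) in each list of pathway genes, in percent, with the number tested in brackets. Dashed lines mark the shares over all tested genes, 20.7% higher and 24.1% lower. All 8 Gimap genes were called higher and 19 of 22 mitosis genes lower.

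Metabolic genes rose more often than they fell in the lists of supply and synthesis. Of 21 tested genes of cholesterol synthesis and uptake 11 rose (52.4%) and 0 fell with limma (0 at an unadjusted p under 0.05 and 0 with voom, median 0.51), with 7 rising without wild-type replicate 2 and 1 falling without leukemia replicate 5. Idi1, the isomerase of isoprenoid units, stood at 2.96, 4.5 and 4.93 FPKM in wild type and at 10.2, 15.1, 10.4, 11.4 and 14.8 FPKM in the leukemias (1.38, SE 0.18, adjusted p = 4.83e-04), and Sqle and Cyp51 rose from 9.36 ± 2.82 to 25.9 ± 6.25 FPKM and from 5.59 ± 0.878 to 18.6 ± 5.09 FPKM. Of 15 tested transporters 7 rose (46.7%, against 20.7% of all tested genes) and 2 fell (13.3%, against 24.1%). Without wild-type replicate 1, 1 fell. Those that rose included Slc7a6 (9.23 ± 0.929 to 28.6 ± 1.8 FPKM) and Slc43a1, another carrier of large neutral amino acids (14.4 ± 4.63 to 32.3 ± 6.98 FPKM). The glutamine carrier Slc1a5 was 1 of those lower, at 179.8 ± 95.6 against 59.8 ± 5.21 FPKM. Subunits of oxidative phosphorylation mostly did not pass: 5 of 33 rose, 3 without wild-type replicate 1, and 1 fell, 0 without wild-type replicate 1 or 2. Genes of the unfolded protein and amino acid response were mixed (5 up and 7 down of 20). Asns, asparagine synthetase, stood at 6.6, 26.8 and 51.9 FPKM in wild type and at 0.427, 0, 0.0837, 0.0401 and 0 FPKM in the leukemias (-4.35, SE 0.51, adjusted p = 2.70e-04), with 0 reads in leukemia replicates 2 and 5. Its difference was -5.12 without wild-type replicate 1 and -3.72 without replicate 3. Trib3, which like Asns is known as a target of the stress factor ATF4, rose from 1.32, 1.44 and 1.21 FPKM to 7.11, 7.93, 16.5, 15.5 and 11.1 FPKM (2.38, SE 0.26, adjusted p = 1.93e-04). Atf4 itself had 104 ± 16.8 against 90.2 ± 18.1 FPKM and did not pass.

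Of 28 tested chromatin modifiers 11 fell (39.3%, against 24.1% of all tested genes), with a median of -0.27. Only 1, the DNA methyltransferase gene Dnmt3b, rose (3.57%, against 20.7%). Smarca4, the BRG1 motor of SWI/SNF remodelling, stood at 438, 394 and 343 FPKM in wild type and at 75.9, 73.4, 140.1, 138 and 189 FPKM in the leukemias (-1.75, SE 0.30, adjusted p = 0.00185). Ezh2, the methyltransferase of Polycomb complex 2, fell from 181 ± 22 to 108 ± 14.1 FPKM, and the methyltransferase gene Kmt2c from 12.8 ± 4.16 to 6.51 ± 0.564 FPKM. Kdm5b, a histone demethylase outside that list that was chosen after its values were seen, stood at 18.2, 14.4 and 17.9 FPKM in wild type and at 0.205, 0.133, 0.115, 0.0614 and 0.565 FPKM in the leukemias (-3.88, SE 0.18, adjusted p = 2.37e-06).

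Markers of granulocytes, red cells and platelets were nearly all lower in the leukemias. Markers of myeloid cells, red cells, platelets, T, natural killer and mast cells and stroma made up 13 of the 18 genes that fell by at least 32-fold. They made up 31 of the 150 that fell by at least 8-fold. Mature B and plasma cell markers were not counted here, and the share of the counted markers among all tested genes was not computed. All 7 tested genes of early and all 12 of late granulocytes fell, with medians of -4.58 and -5.43. S100a8 stood at 874, 430.4 and 99.1 FPKM in wild type and at 0.6, 2.92, 2.06, 0.394 and 2.14 FPKM in the leukemias, so that the wild-type pools themselves differed by several fold, with replicate 1 the highest and replicate 3 the lowest. All 11 genes of platelets and 8 of 9 tested genes of red cells fell, and summed platelet markers were 85 to 518 FPKM in wild type and 0.458 to 1.69 FPKM in leukemia. The red cell markers summed to 244 to 1281 and 57.1 to 148 FPKM, while 6 globin genes of that list are listed at 0 in all 8 libraries. None of 9 tested T cell genes was called with limma (0 higher and 0 lower at an unadjusted p under 0.05, and 0 and 1 called with voom). Without leukemia replicate 1, 3 were lower, without wild-type replicate 2, 1 was lower and without leukemia replicate 5, 1 was higher. Their sum was 39.5 to 60.2 FPKM in wild type and 16.2 to 162 FPKM in leukemia, and Trat1 stood at 54.8 FPKM in leukemia replicate 1 against at most 10.5 FPKM in the others. In tissue of several cell types, fewer cells of a type and less RNA per cell cannot be told apart. Of 6 tested monocyte genes 4 fell, and of 6 plasma cell genes 2 rose (Mzb1 and Jchain) and 2 fell (Sdc1 and Slpi). Of 10 mature B cell genes 5 fell (3 without wild-type replicate 1 or 2) and 1 rose (2 without leukemia replicate 2 or 5 or wild-type replicate 1, and 4 without leukemia replicate 4). Mzb1 rose from 209.7 ± 67.6 to 662 ± 124 FPKM, Jchain from 5.56 ± 2.6 to 36 ± 32.3 FPKM and Bank1 from 3.57 ± 0.886 to 36.7 ± 17.1 FPKM, while Fcmr fell from 25.7 ± 10.5 to 2.32 ± 2.2 FPKM. Of 12 tested genes that respond to cell handling 6 fell and 1 rose (2 without wild-type replicate 1 and 0 without replicate 3), with Btg2 from 139 ± 50.1 to 30.9 ± 7.77 FPKM and Jund from 133 ± 76.5 to 37.3 ± 9.12 FPKM. The part of handling, and of the other cell types, in the results above was not tested.

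**Figure D5:**
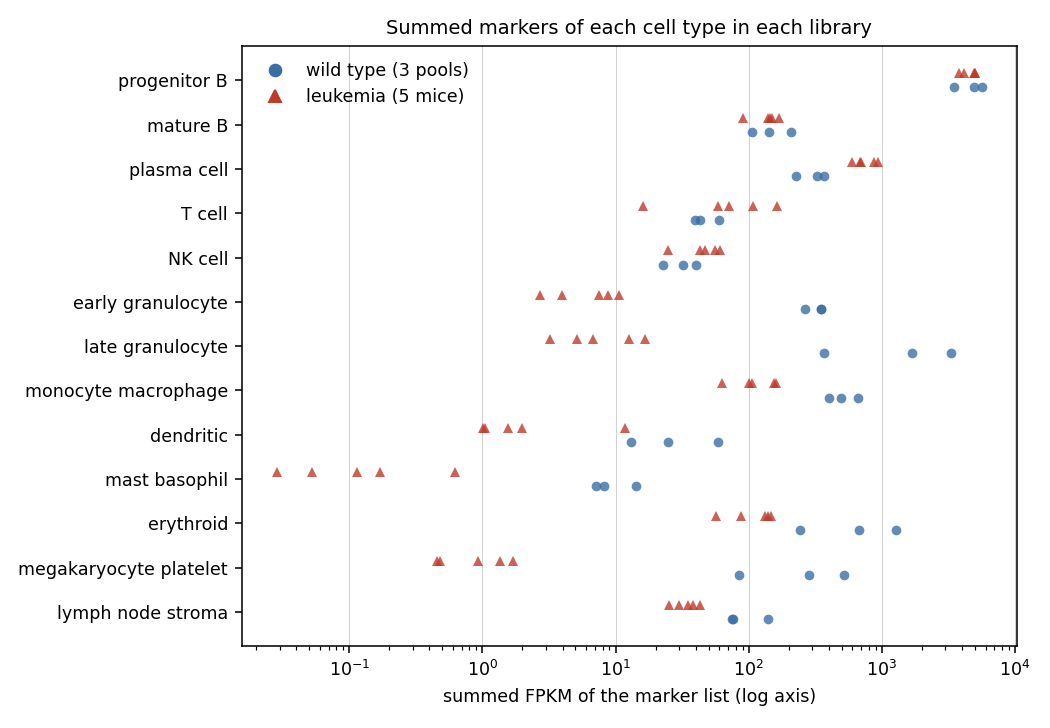
Summed FPKM of the marker genes of each cell type in each library, on a logarithmic axis. Circles are the 3 wild-type pools and triangles the 5 leukemias. Sums of progenitor B cell markers overlap between the groups, and sums of granulocyte and platelet markers are lower in every leukemia.

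The leukemias also differed from each other. Chosen by the spread of their log2 values, and so given as a description, 6 called genes varied most. Ifitm1, an interferon-induced membrane protein, stood at 38.8, 173, 22.5, 258 and 11.1 FPKM in the 5 leukemias against 4.4, 1.41 and 2.96 FPKM in wild type. Trf, transferrin, stood at 74.2, 37.3, 132, 87 and 8.14 FPKM against 9.32, 12.3 and 9.53 FPKM, so that leukemia replicate 5 lay below the wild-type pools. Its call was lost without any 1 library other than leukemia replicate 5 (adjusted p = 0.0585 to 0.11) and with voom on recovered reads (0.0842). Scin, the actin-severing protein scinderin, stood at 67.1, 172, 72.9, 10.9 and 85.2 FPKM with replicate 4 the lowest, against 2.95, 2.93 and 2.03 FPKM. Nmrk1, a nicotinamide riboside kinase, ran from 8.7 to 66.9 FPKM, Car3, a carbonic anhydrase, from 5.2 to 46.5 FPKM and Afap1l1, an actin-associated protein, from 2.42 to 31.6 FPKM. Leukemia replicate 5 was the lowest for Ifitm1, Trf, Car3 and Afap1l1, replicate 4 for Scin and replicate 3 for Nmrk1. Leukemia replicate 4 was the highest for Ifitm1, Nmrk1 and Car3, replicate 1 for Afap1l1, replicate 2 for Scin and replicate 3 for Trf. With voom, the calls of Ifitm1, Nmrk1, Car3 and Afap1l1 were lost too (adjusted p = 0.0617 to 0.183).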

How the data were processed

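The authors deposited 1 table of FPKM values for 23071 gene identifiers, of which the 8 columns of leukemia and wild type were used. Per the submitters' processing notes, BWA 0.7.12 and mouse build mm10 (GRCm38) apply to these libraries. For the 3 Ebf1 heterozygous libraries, used in 1 alternative only, the notes name TopHat2 and Cufflinks instead. For the 8 libraries, which tool counted reads, and on which gene models, is not given in the sources used here. The library totals were derived from ratios of values between libraries and between genes, on the premise that each value stands for whole reads. With those totals, all 17380 rows above 0 came out as whole reads, to 0.001 of a read, for an integer gene length. The smallest such length was taken, so rows above 0 in few libraries pass easily and their reads may be too low. The 27 identifiers that are date serial numbers were not named. Values were log2(FPKM + 1), kept where the 8 libraries averaged 1 FPKM or more, and tested in R 4.3.3 by limma 3.58.1 (two-sided, trended eBayes, both groups only, no block, Benjamini-Hochberg adjusted p under 0.05). Wild-type libraries are pools of mice and leukemias are single mice, so their spreads have different sources. The test was also run on simulated counts, drawn with few changed genes and the same spread in both groups. In the real data 44.8% of tested genes were called and the groups differ in pooling. That run therefore does not measure the error of the test here.

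Named genes are Pax5 and Ebf1, the 10 higher and 10 lower genes of largest moderated t with a log2 difference of at least 2, at least 20 FPKM in the higher group and no overlap, members of 40 gene lists, and the 6 called genes most variable among leukemias. Single values of a few genes are not reported here, though the genes stay in the counts. The members and lists were chosen with earlier results of these data known. Positions and promoters are from RefSeq (GRCm38.p6). The labels name no molecular identifiers, so reads were not taken as independent molecules, limits from counts of 0 cover counting error only, and overlapping genes, antisense genes and close copies could not be told apart. Alternatives were other pseudocounts, filters, scalings, fits, voom on recovered reads, a replicate block and leaving out each library. Figures and tables used Python 3.11.15, SciPy 1.17.1 and Matplotlib 3.10.9.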

Additional observations from a re-analysis of the deposited data

Results flagged for a closer look

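Among the 199 genes named or leading a list, 14 (7.04%) had 1 leukemia set apart from the other 4, its gap to the nearest on the log2(FPKM + 1) scale taking more than 0.71 of the range of the 5. Chance alone sets apart about 1 in 20 such groups. Leukemia replicate 5 was the one set apart in 6 of the 14 genes: it was the lowest for the surrogate light chain genes Vpreb1 (733 FPKM) and Igll1 (552 FPKM), for Cd72 (4.92 FPKM) and for Afap1l1 (2.42 FPKM), and the highest for Chil3 (1.13 FPKM) and Pf4 (0.119 FPKM). Leukemia replicate 1 was the highest for Ptpn6 (161 FPKM), Slc7a6 (31.8 FPKM), Asns (0.427 FPKM) and Siglech (7.9 FPKM), a marker of plasmacytoid dendritic cells. Leukemia replicate 2 was the lowest for Cd68 (1.59 FPKM). Leukemia replicate 3 was the highest for Cdkn1b (42.0 FPKM) and Itga2b (0.117 FPKM), and leukemia replicate 4 for Elane (0.084 FPKM). The values under 0.2 FPKM rest on a few reads.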

How the results depend on the processing

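Both counts of called genes stayed within 1.5 times the reported ones under all 20 alternatives, from 1658 (replicate block) to 3007 (array weights) genes higher and from 2020 (replicate block) to 3619 (no filter on low values) lower. Leaving out 1 library gave 1746 to 2135 higher and 2048 to 2590 lower. Voom on the recovered reads called 2068 higher and 2679 lower. Of the calls shared with the reported fit, 18 changed sign under quantile scaling and 0 under each other alternative. Pax5 kept its direction but not its call without the filter (-0.91, adjusted p = 0.0552), with all 11 libraries in 1 fit (-0.91, 0.0704) and with the replicate block (-0.56, 0.129), and Ebf1 lost its call with all libraries in 1 fit (-0.57, 0.0631). With 1 library left out, Pax5 ranged from -1.05 to -0.64 and Ebf1 from -0.69 to -0.48. The cause was not tested. Groups share replicate numbers in the labels. Same-numbered wild-type and leukemia libraries did not deviate together (correlations of -0.0478, 0.0716 and -0.136), and the main fit did not pair them. With 3 wild-type pools these correlations cannot exclude a shared preparation or batch. The replicate block gave 1658 higher and 2020 lower.

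Counts of list members moved by more than 1.5 times in 122 of 1600 recomputations, most often without wild-type replicate 1 (18) or 2 (16). Array weights gave 6 BCL2 family genes higher against 3, 11 G1 genes lower against 7, 10 oxidative phosphorylation genes higher against 5, 8 unfolded protein response genes higher against 5, 3 NF-kB genes higher against 1 and 4 MHC class II genes lower against 2. The replicate block gave 4 G1 genes lower against 7, 7 cholesterol genes higher against 11, 2 transporters higher against 7, 9 cytokine receptors lower against 5, 3 Notch genes lower against 6, 4 MHC class I genes higher against 7 and 4 V(D)J genes lower against 7, and all libraries in 1 fit gave 4 of the last as well. A minimum of 5 FPKM, which tests fewer genes, gave 1 BCL2 family gene higher against 3, 3 progenitor factors lower against 6, 2 ribonucleases lower against 4, 5 red cell genes lower against 8 and 6 platelet genes lower against 11. Library totals of 8.51 to 14.49 in units of 1e6 reads limit genes near 1 FPKM, and 3 wild-type pools limit every test.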

Other observations

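The most abundant genes took a larger share of the RNA in the leukemias. The 100 highest genes of each library held 26.2% to 27.2% of its summed FPKM in wild type and 33.4% to 41.2% in leukemia, with leukemia replicate 1 the highest. Eef1a1, a translation elongation factor, was the first gene in all 8 libraries, at 4662 to 5626 FPKM in wild type and 8958 to 11756 FPKM in the leukemias. Of the 66 genes with a mean log2(FPKM + 1) of at least 10, 55 were called higher and 3 lower. Ribosomal protein genes, by symbol, made up 51 of them, of which 50 were higher. FPKM values are relative to the library total, so a rise of such genes lowers the values of the others, and quantile scaling, which gives all libraries 1 distribution, moved the share of higher genes among the calls from 46.1% to 52.5%.

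Leukemia replicate 3 stood apart on 2 chromosomes. Over 336 genes of chromosome 15 with a mean of at least 5 FPKM, its median difference from the wild-type mean was 0.178 on the log2 scale, against -0.088 to -0.042 in the other 4 leukemias. Over 449 genes of chromosome 17 its median was 0.146, against -0.102 to -0.026 in the others. These chromosomes were picked after seeing the values, and DNA copy number was not analysed here.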
